A study of Homo sapiens with 4 samples.

Results

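The zinc finger gene clusters of human chromosome 19 were taken here as the poly(A) regions that lie wholly within 4 windows of the hg19 build: 11.6 to 12.8, 19.7 to 24.5, 36.6 to 38.3 and 52.0 to 58.85 Mb. They were taken by position alone, on either strand. The rule uses no measured value, but it was set with earlier results of these data known. The windows held 208 of the 1467 regions of chromosome 19, and of 31081 regions in the whole table. By window, in that order, there were 20, 17, 22 and 149 members, so most of them came from the fourth window, at the end of the long arm. The remaining 1259 regions of chromosome 19 served as the comparison.

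KRAB zinc finger genes encode the largest family of human transcription factors. Their KRAB domain recruits the co-repressor TRIM28, their array of zinc fingers reads a DNA sequence, and many of them silence transposable elements. The genes arose by repeated tandem duplication, lie side by side in clusters and resemble each other in sequence. Of 1451 protein-coding genes that RefSeq places on chromosome 19 (GRCh38.p14), 250 carry a symbol of the ZNF series, and these are 48.4% of the 517 such genes of the genome. The windows hold genes of other kinds as well. The fourth spans the ribosomal protein genes RPS9 and RPL28, receptor genes of leukocytes and killer cells, and the primate microRNA cluster of this chromosome.

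Poly(A) site sequencing reports where transcripts were cleaved and polyadenylated. It was done on 4 libraries of DICER(ex5), a line made from the human colon cancer line HCT116 and labelled a hypomorph for Dicer, the ribonuclease that cuts microRNA precursors. The labels describe a single group, with no parental line and no treatment, so nothing here can be read as an effect of Dicer, and comparisons are between regions or between libraries. The libraries held 5211279, 2163977, 5713530 and 3984278 reads, of which 47844, 19152, 56447 and 40092 lay in the windows. Nothing in the labels says whether the libraries came from separate cultures, so the spread between them may be technical.

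The cDNA was primed with an anchored oligo(dT), which can also start on A-rich stretches inside a transcript. A genome sequence of hg19 was not used here, so the flanks of the regions were not read. The table gives no gene names, no annotation of hg19 was used, and the members are named by position. Whether a given member ends a zinc finger transcript or that of a neighbouring gene was therefore not tested.

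Poly(A) regions were sparser and more weakly read in the zinc finger windows than in the rest of the chromosome. The windows held 14.3 regions per Mb against 28.4 over the rest, counted from the first to the last region of the chromosome, a length that takes in the centromere. Ends that the authors did not call as regions could not be scored. The median region had 6.52, 6.01, 5.34 and 5.27 CPM (reads scaled to the library total) in libraries 1 to 4 in the windows, and 11.7, 12.01, 11.2 and 11.3 CPM in the rest. All 4 medians of the windows lay below the 4 of the rest. On average the medians were 5.79 ± 0.594 and 11.6 ± 0.377 CPM (SD, n = 4), a log2 ratio of -1.003 ± 0.114 that was below 0 in 4 of 4 libraries. The exact two-sided sign-flip permutation test over libraries gave p = 0.125 (0.125 after Benjamini-Hochberg adjustment over the 4 tests of this kind). This is the smallest p that 4 libraries allow, so the test cannot reach 0.05. In bulk RNA, fewer cells that make a transcript and less of it in each cell cannot be told apart. Zinc finger genes resemble each other in sequence, and the handling of reads that match more than a single gene is unknown. The part of that handling in the lower density and level of the windows was not tested.

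The gap was narrower for the mean than for the median region and wider per locus. By mean in place of median, the log2 ratio was -0.53 ± 0.0291, with 45.6 ± 2.75 CPM in the windows and 66.0 ± 2.99 in the rest (SD, n = 4). Counted per locus, with same-strand regions joined when they lay within 5000 bases of each other, it was -1.78 ± 0.0821, and among regions with at least 100 summed reads -0.57 ± 0.133. Summed over the libraries, 1000 reads or more were found at 31 of 208 members (14.9%, 95% Wilson interval 10.7% to 20.4%) and at 298 of 1259 other regions (23.7%, 21.4% to 26.1%). At the low end, 20 members (9.62%, 6.31% to 14.4%) had a library without a read, against 40 other regions (3.18%, 2.34% to 4.30%). Intervals cover counting error only, and regions are not independent replicates.

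**Figure D1:**
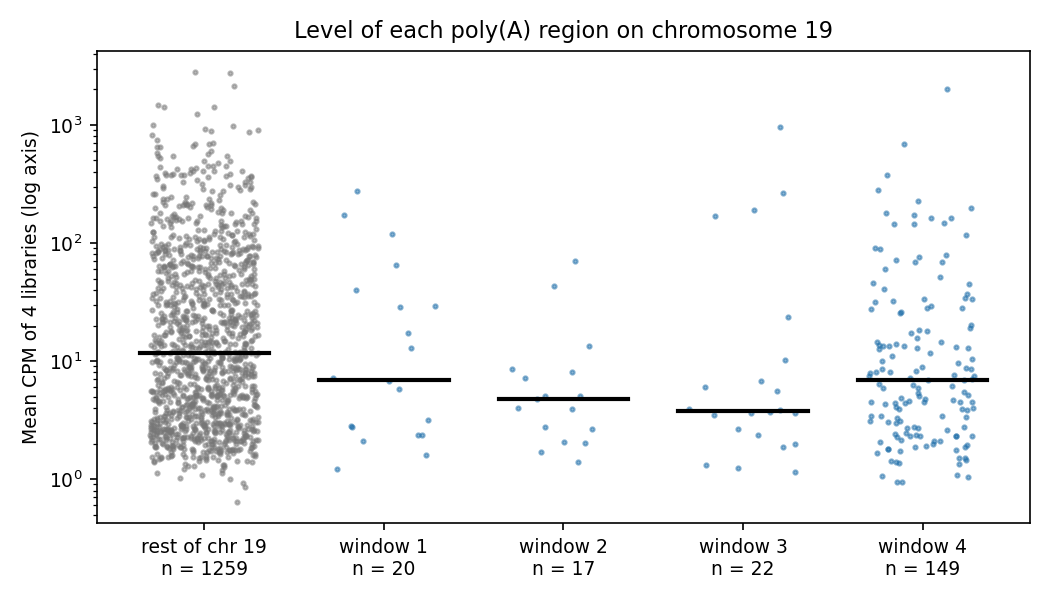
Each point is a poly(A) region of chromosome 19, and the vertical log axis gives its mean CPM over 4 libraries. The rest of the chromosome (1259 regions, grey) is set beside the 4 windows (20, 17, 22 and 149 regions, blue), and black bars mark the median of the points, which lies lower in each window than in the rest.

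The 4 windows differed among themselves in density more than in the level of the median region. The second window, next to the centromere, had 3.54 regions per Mb. The first, the third and the fourth had 16.7, 12.9 and 21.8. Summed reads came to 38.7 ± 4.203 CPM per Mb in the second window, 667 ± 29.6 in the first, 986 ± 19.8 in the third and 997 ± 83.7 in the fourth, against 1877 ± 84.9 in the rest of the chromosome (SD, n = 4). The second window thus stood far below the others, and all 4 below the rest.

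The median region had 7.20, 5.78, 7.79 and 9.29 CPM in libraries 1 to 4 in the first window and 7.10, 6.93, 6.13 and 6.02 CPM in the fourth. These ranges overlapped, and library 2 had them in the other order. The medians were 4.22, 5.55, 3.85 and 3.51 CPM in the second window and 4.99, 4.16, 2.98 and 3.39 CPM in the third, which overlapped as well. In none of the 4 windows did a library reach the lowest median of the rest of the chromosome. With 17 to 22 regions in each of the first 3 windows, these medians rest on few regions.

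Reads in the windows were concentrated in a handful of regions. The 10 strongest of 208 members held 58.3% of the members' reads. The 10 strongest of the other 1259 regions held 19.9% of theirs, but any 10 regions are a much smaller part of that larger set. Equal fractions were not compared, so these shares do not show that reads were more concentrated in the windows than in the rest. The strongest member took 22.0% of the members' reads, and in the third window a single region took 57.5%. The members together held 10.2% ± 0.187 of the reads of chromosome 19 (SD, n = 4), and 8.27% ± 0.445 without the strongest of them.

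The strongest locus of all lay on the plus strand at chr19:55899704-55903469 in the fourth window. It had 8341, 2946, 14877 and 10362 reads in libraries 1 to 4 and 2042 ± 655 CPM (SD, n = 4). Its leading region, chr19:55899704-55899781, had 1573 CPM in library 1 and 1339 in library 2, but 2574 in library 3 and 2573 in library 4. Those pairs did not overlap, and the SD of the locus mostly reflects them. The next loci of that window were chr19:54711374-54711535 on the plus strand with 4358, 1657, 3228 and 2473 reads (697 ± 126 CPM) and chr19:52729639-52729694 on the plus strand with 1727, 770, 2250 and 1672 reads (375 ± 39.2 CPM; SD, n = 4). The first of these 2 was higher in libraries 1 and 2 and the second lower, so strong members did not move together between libraries.

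In the third window, the plus-strand region chr19:36641216-36641283 had 4787, 2072, 5484 and 4042 reads, or 963 ± 39.4 CPM (SD, n = 4). It was followed by chr19:36604604-36604642 on the minus strand, with 267 ± 14.3 CPM, and by the plus-strand locus chr19:36726645-36729681, with 197 ± 6.86 CPM (SD, n = 4). The last of these held 8 regions, the most of any member locus, but a single one of them had 5% or more of its reads. These 3 loci varied little between libraries and lay together at the start of the window.

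The first window was led by chr19:12778864-12778909 on the minus strand, with 1501, 492, 1692 and 1188 reads (277 ± 33.7 CPM). The minus-strand regions chr19:11663843-11663884 and chr19:12786521-12786547 gave 173 ± 12.3 and 118 ± 18.3 CPM (SD, n = 4). All 3 lay near an edge of the window. In the second window, the minus-strand regions chr19:19755997-19756039, chr19:19734444-19734486 and chr19:19740278-19740290 gave 69.96 ± 17.1, 43.4 ± 13.4 and 13.4 ± 2.43 CPM (SD, n = 4). These were the 3 strongest of the second window, and they too lay at its start, so that the inner part of the window was left with weak regions.

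The distribution along the windows was then read in bins of 0.5 Mb. In the second window, the first bin held 6 regions with 143 ± 31.7 CPM, and no later bin exceeded 12.6 ± 4.33 CPM (SD, n = 4). In the third window, the first bin held 16 of the 22 regions and 1631 ± 37.0 CPM, and the later ones at most 29.9 ± 27.2 CPM. In the first window, 4 regions with 8.87 ± 2.27 CPM lay from 12.1 to 12.6 Mb, between bins with 258 ± 12.5 and 533 ± 22.6 CPM (SD, n = 4). The first 3 windows thus had their strong regions at the edges and weak ones inside.

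In the fourth window, reads were densest in the middle. The stretch from 54.5 to 56.5 Mb, chosen after its values were seen, held 63 regions with 5683 ± 612 CPM, or 60.3% of the members' reads. Its median region had 16.6 ± 1.75 CPM (SD, n = 4), above the 11.6 CPM of the rest of the chromosome. The remaining 86 regions of the window had a median of 4.07 ± 0.386 CPM and summed to 1148 ± 40.1 CPM (SD, n = 4). In the same order, 20 of 63 and 2 of 86 regions had 1000 reads or more. Within that stretch, the bin from 55.0 to 55.5 Mb contained no region, while the next held 35 regions, the most of any bin. With the stretch left out, 145 members remained, with a median of 4.16 ± 0.420 CPM, and the log2 ratio to the rest of the chromosome was -1.48 ± 0.100 (SD, n = 4). Because the stretch was picked after its high values were seen, the lower ratio without it follows from that choice and is not a test.

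**Figure D2:**
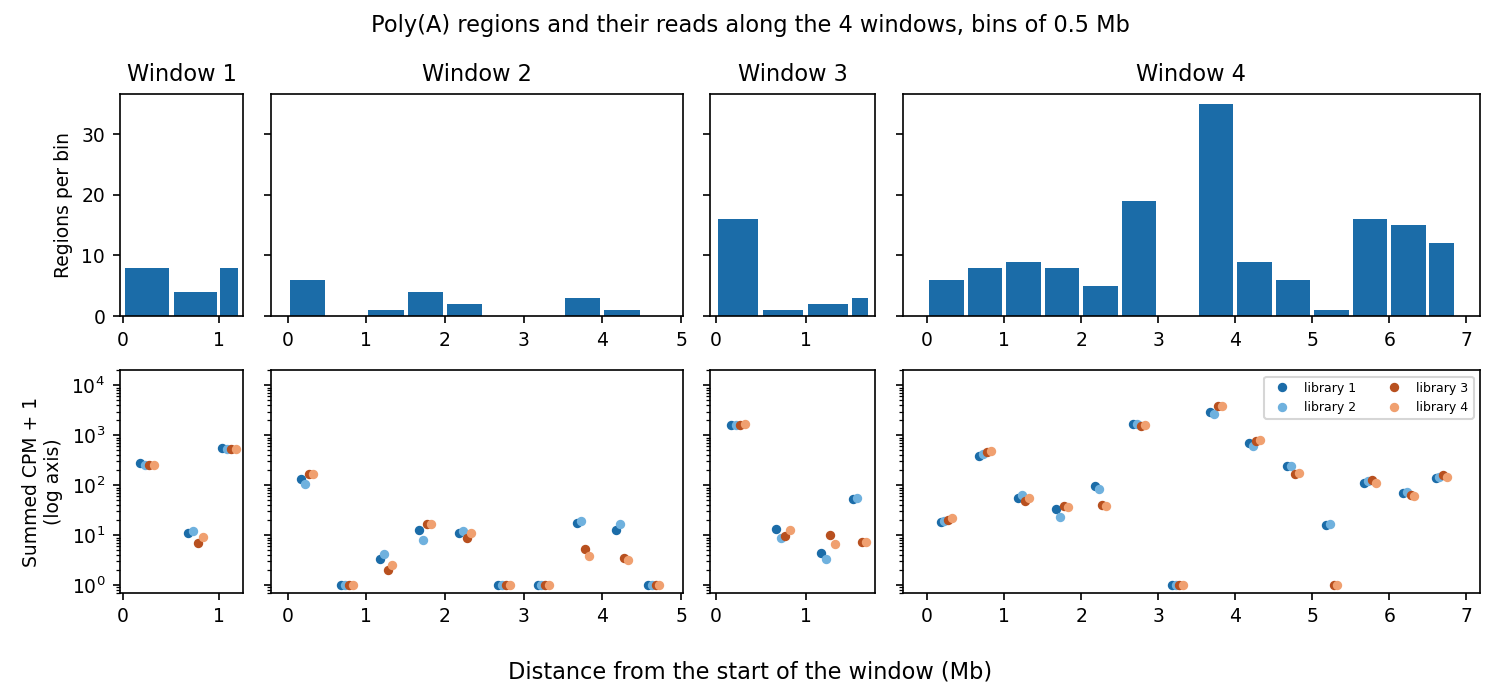
The upper panels count poly(A) regions and the lower panels give their summed CPM plus 1 on a log axis, for each of 4 libraries (points), in bins of 0.5 Mb from the start of each window; the last bin of a window can be shorter. Strong bins lie at the edges of the first 3 windows and in the middle of the fourth, and empty bins sit at 1 in the lower panels.

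Member regions were slightly narrower than others at the median. The median width was 27 bases in the windows (quartiles 16 and 40) and 31 in the rest (21 and 42); these are widths of the deposited regions, common to all libraries. Among regions with at least 3 reads after each library was thinned to 2163977 reads, the medians were 28, 28, 28 and 30 bases in the windows and 31, 31, 32 and 32 in the rest. The difference was -3 ± 0.816 bases, in the same direction in 4 of 4 libraries (exact sign-flip permutation p = 0.125, adjusted 0.125). The libraries share these widths and differ only in which regions are counted. Their agreement and the p therefore do not measure the spread between regions. The difference was -0.500 ± 0.577 bases among regions with at least 100 summed reads, which is within the spread between libraries. It was -2 bases without regions of 5 bases or fewer, -1.38 without the second window, -1.88 without the third and -7.88 without the fourth.

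Widths were then compared within classes of summed reads, chosen after the data were seen. Under 100 reads, the median was 19 bases at 105 members and 23 bases at 458 other regions. From 100 to under 1000 reads it was 30.5 and 32 bases (72 and 503 regions), and from 1000 reads 43 and 42 bases (31 and 298 regions). The gap of 4 bases was thus kept among the weakest regions and was not seen among the strongest. By window, medians were 26.5, 20, 22 and 28 bases. The widest members were all in the fourth window: chr19:55741579-55741678 on the minus strand with 100 bases and 8.31 ± 2.84 CPM, chr19:55644142-55644230 on the minus strand with 89 bases and 197 ± 8.0 CPM, and the strongest member with 78 bases (SD, n = 4). A wide region was thus not always a strong one.

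How many poly(A) regions a locus of the zinc finger windows had was asked next. Joined within 5000 bases, the 208 members made 160 loci and the other regions 821, and 0 of the 981 loci crossed a window border. The windows had 1.30 regions per locus and the rest 1.53. A region was counted as passing with at least 10 summed reads and 5% of the reads of its locus. In the windows, 133 loci had 1 passing region, 24 had 2 and 3 had 3, the most of any. In the rest, 15 of 821 loci had 4 or more. Several passing regions were found at 27 of 160 loci of the windows (16.9%, interval 11.9% to 23.4%) and at 198 of 821 others (24.1%, 21.3% to 27.2%). More members than other regions stood alone, with no neighbour on their strand within 5000 bases: 125 of 208 (60.1%, 53.3% to 66.5%) against 559 of 1259 (44.4%, 41.7% to 47.2%).

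Each library was also counted alone at equal depth, over loci with at least 10 reads and regions with at least 3. Several passing regions were found at 19.4%, 22.1%, 25.5% and 23.5% of the loci of the windows and at 29.0%, 28.7%, 27.7% and 28.4% of the others. The share was lower in the windows in 4 of 4 libraries, by -5.82 ± 3.10 percentage points (SD, n = 4; exact sign-flip permutation p = 0.125, adjusted 0.125). The difference was smallest in library 3, at -2.24 points, and largest in library 1, at -9.62. It was -3.29 points without the first window, with 3 of 4 libraries below 0, -15.4 without the fourth and -3.59 without the stretch from 54.5 to 56.5 Mb, again in 3 of 4 libraries. Among loci with at least 100 reads at equal depth it was -10.6 points.

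The share also varied with the reads of a locus, whose median was 134.5 in the windows and 455 in the rest. Of loci with under 100 summed reads, 3 of 68 in the windows (4.41%, 1.51% to 12.2%) and 7 of 191 others (3.66%, 1.79% to 7.37%) had several passing regions. From 100 to under 1000 reads the shares were 31.7% (21.6% to 44.0%) of 63 loci and 33.0% (28.3% to 38.2%) of 345. From 1000 reads they were 13.8% (5.50% to 30.6%) of 29 and 27.0% (22.2% to 32.5%) of 285. In these classes, chosen after the data were seen, the intervals of windows and rest overlapped. How far the reads of a locus account for the difference was not tested.

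**Figure D3:**
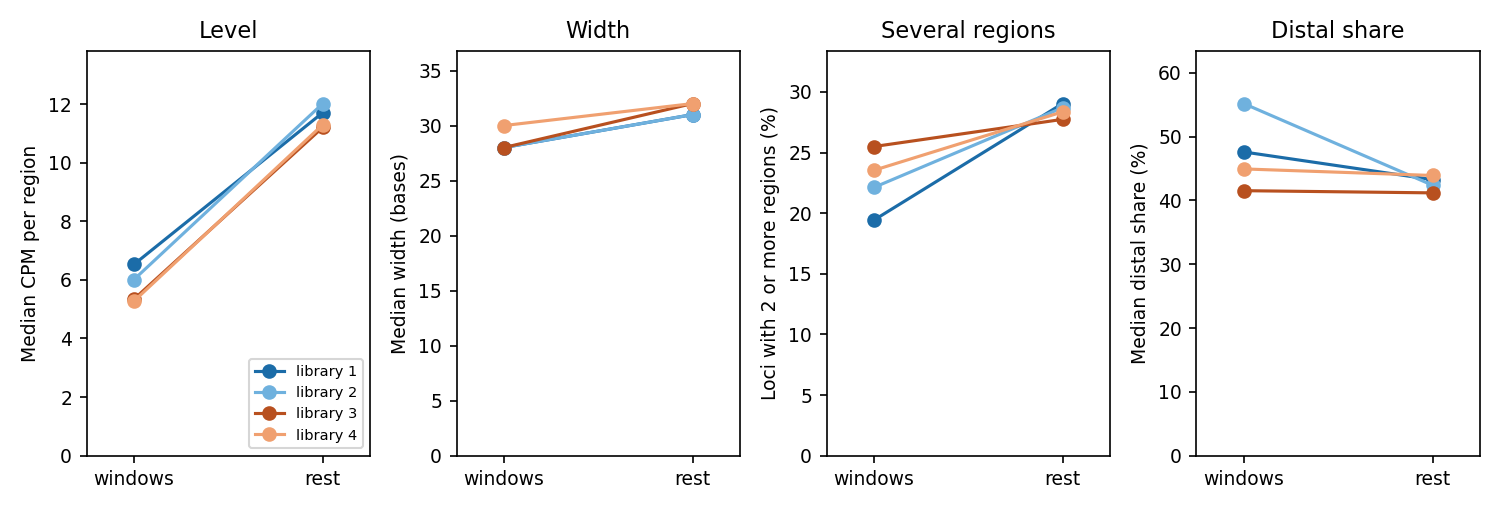
Each line joins the value of a library in the zinc finger windows to its value in the rest of chromosome 19: the median CPM per region, the median width in bases, the percent of loci with 2 or more passing regions, and the median distal share in percent. Level, width and the share of loci with several regions were lower in the windows in all 4 libraries, while the distal share was spread widely in the windows and narrowly in the rest.

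The division of reads within a locus did not clearly differ from that of the rest of the chromosome. Here, the distal share gives what part of the reads in a locus's passing regions belonged to the region furthest 3'. It could be read at 24 loci of the windows with at least 100 reads (2 in the second window and 22 in the fourth) and at 191 others. Its median was 47.6%, 55.2%, 41.5% and 44.9% in libraries 1 to 4 in the windows and 43.2%, 42.4%, 41.2% and 43.9% in the rest. The difference was 4.63 ± 5.72 percentage points (SD, n = 4), above 0 in 4 of 4 libraries but smaller than its own spread (exact sign-flip permutation p = 0.125, adjusted 0.125). With a library left out and the loci chosen again on the reads of the other 3, it was 7.13 points without library 1, 0.795 without library 2, 13.2 without library 3 and 8.19 without library 4. Both the library and the loci change in these values. At loci with exactly 2 passing regions it was of the opposite sign, -3.24 ± 4.47 points. Without the stretch from 54.5 to 56.5 Mb it was 0.428 ± 4.82 points, above 0 in only 1 of 4 libraries.

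Distal shares of the 24 loci ran from 8.63% to 94.2%. The distal region held over 50% in all 4 libraries at 8 loci, under 50% in all 4 at 10, and neither at the remaining 6. From the first to the last passing end, the median distance was 1943 bases at the 24 loci and 1367 bases at the 191 others. At loci with 2 passing regions it was 2154 bases in the windows (21 loci) and 963 bases in the rest (133 loci). Of the 24 loci, 10 had their strongest region furthest 3' (41.7%, 24.5% to 61.2%), as did 93 of 191 others (48.7%, 41.7% to 55.7%), and these intervals overlap. Between libraries, the SD of these shares was 6.92 points at the median locus and reached 10 points at 7 of the 24.

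Among 9 loci with 2 passing regions and 400 reads or more, distal usage was strongest on the plus strand at chr19:54658214-54659453. There it held 94.2%, 91.4%, 95.2% and 96.0% in libraries 1 to 4, with ends 1198 bases apart. Next came chr19:57815780-57819933, with 96.1%, 95.9%, 92.6% and 86.9% and ends 4139 bases apart, and chr19:58774836-58775016, with 96.1%, 94.4%, 90.2% and 90.7% and ends 157 bases apart, both on the plus strand. At these 3 loci the distal region held most reads in every library.

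The lowest distal shares of the 9 were 35.6% ± 8.98 on the minus strand at chr19:54659357-54663867, 35.6% ± 6.87 on the plus strand at chr19:52824935-52829199 and 36.6% ± 17.3 on the plus strand at chr19:58826531-58827027 (SD, n = 4). The first 2 of these loci were among the 3 longest of the windows, with 4511 and 4265 bases from the first start to the last end. The longest, chr19:54677097-54682074 on the minus strand, spanned 4978 bases and had a single passing region. At chr19:58826531-58827027 the libraries fell apart: the distal region held 45.2% in library 1 and 56.8% in library 2, but 23.4% in library 3 and 21.2% in library 4. Its proximal region had 91, 19, 246 and 167 reads and its distal one 75, 25, 75 and 45, so the proximal one was the one that differed.

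Of the same 9 loci, reads were most evenly divided on the minus strand at chr19:55773576-55773743, on the plus strand at chr19:56154816-56157001, and at the locus just described. At the first, the distal region held 56.1%, 61.1%, 45.2% and 46.3%, and the ends were 124 bases apart. At the second, it held 51.5%, 53.5%, 53.4% and 55.4% (53.5% ± 1.60; SD, n = 4), with ends 2154 bases apart and 2553 reads in all. This second locus was the steadier one: it lay just above an even division in every library.

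**Figure D4:**
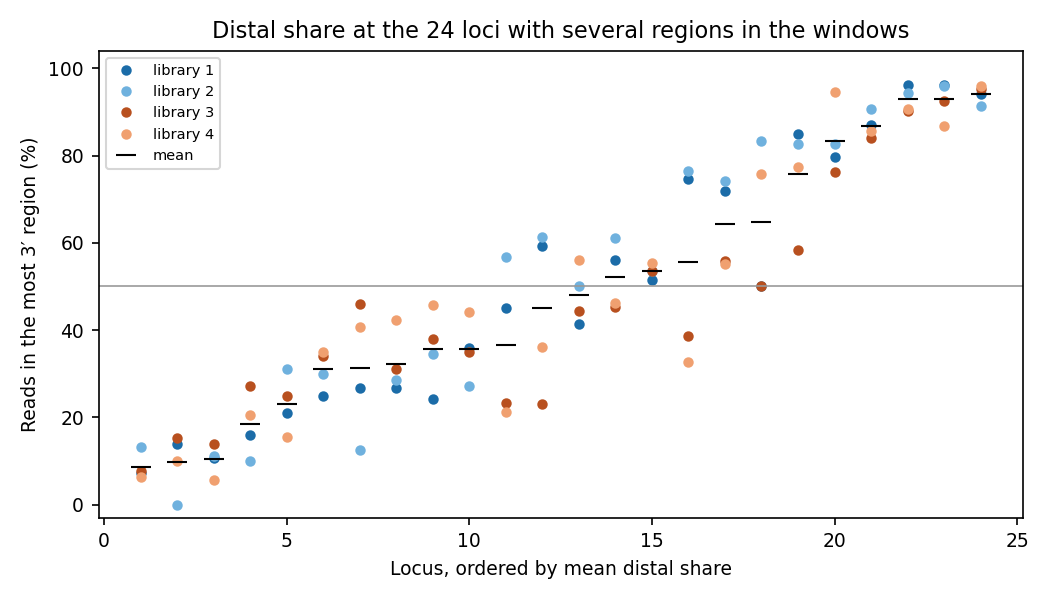
The vertical axis gives the percent of reads in the most 3' region at each of the 24 loci of the windows with several passing regions, ordered by their mean (black bars), with a point for each of 4 libraries. Loci run from 8.63% to 94.2%, and points of libraries 1 and 2 and of libraries 3 and 4 separate at some loci in the middle of the range.

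Loci with 3 passing regions were found 3 times, all on the plus strand of the fourth window. At chr19:54378562-54379704, which had 521 reads, the distal region held 71.9%, 74.1%, 55.7% and 55.2% in libraries 1 to 4, and the middle one 4.84% ± 2.38 (SD, n = 4). At chr19:55512166-55513906, which had 396 reads, the most 5' region is 9 bases wide and had 43, 20, 3 and 4 reads, while the middle one had 33, 13, 164 and 85. The leading region was therefore the most 5' one in libraries 1 and 2 and the middle one in libraries 3 and 4. At chr19:58133282-58136099, with 149 reads, the 3 regions took 24.02% ± 3.45, 43.8% ± 4.12 and 32.2% ± 6.96 from 5' to 3' (SD, n = 4), the most even division of the 3.

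Libraries 1 and 2 resembled each other, as did libraries 3 and 4, and the labels give no batch that would name this division. Of the 103 members with at least 100 summed reads, 14 were over 2-fold apart between libraries 1 and 3 (13.6%, interval 8.27% to 21.5%), where 12.8% of such regions of the whole table were. Between libraries 1 and 4 there were 14 as well, beside 12.2% in the whole table. The counts were 21 between libraries 2 and 3 (20.4%, 13.7% to 29.2%; 18.5% in the whole table) and 21 between libraries 2 and 4 (17.7%). Within the pairs, 1 member differed over 2-fold between libraries 1 and 2 (2.08% in the whole table) and 4 between libraries 3 and 4 (1.9%). In the rest of chromosome 19 the shares were 9.36%, 8.99%, 14.2% and 12.6% in the first 4 of these comparisons, and 1.75% and 1.50% within the pairs. The members' shares within the pairs were 0.971% (0.172% to 5.30%) and 3.88% (1.52% to 9.56%). In the 4 comparisons across the pairs, the shares of members were close to the whole table and above the rest of the chromosome, with intervals that overlap those of the rest (7.54% to 11.6% between libraries 1 and 3, 10.5% to 15.1% between libraries 2 and 4). Members past the fold went both ways. Against library 3, 9 were higher in library 1 and 5 lower, and against library 4, 8 were higher in library 1 and 6 lower. In library 2, 9 were higher and 12 lower, both against library 3 and against library 4. These are counts past a fold between single libraries, with no test.

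Among the 103 members with at least 100 summed reads, the 5 that differed most between libraries, by the ratio of highest to lowest CPM plus 1, were high in libraries 1 and 2 and low in the others. The plus-strand region chr19:38246500-38246501 in the third window, 2 bases wide, had 231, 106, 0 and 4 reads in libraries 1 to 4. Library 2 was at least 93.3-fold above library 3, taking 3 counts as the limit that a count of 0 allows. The plus-strand region chr19:54109267-54109272, 6 bases wide, had 352, 119, 8 and 6 reads, or 67.5, 55.0, 1.4 and 1.51 CPM. At chr19:57286641-57286651, on the plus strand and 11 bases wide, there were 77, 34, 0 and 0 reads. These 3 are short regions, and libraries 1 and 2 stood above libraries 3 and 4 at each.

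Next in this order were the plus-strand chr19:23387265-23387274, with 66, 30, 12 and 1 reads, and the minus-strand chr19:56728499-56728524, with 109, 55, 22 and 15. At the other extreme, the plus-strand region chr19:54379671-54379704 had 18.6, 19.9, 18.7 and 18.8 CPM. The plus-strand regions chr19:57706301-57706338 and chr19:36616798-36616855 gave 8.69 ± 0.297 and 191 ± 6.25 CPM (SD, n = 4). Of the 103, the 3 steadiest were 34 to 58 bases wide and the 5 least steady 2 to 26 bases wide. Members with fewer reads were not ranked.

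**Figure D5:**
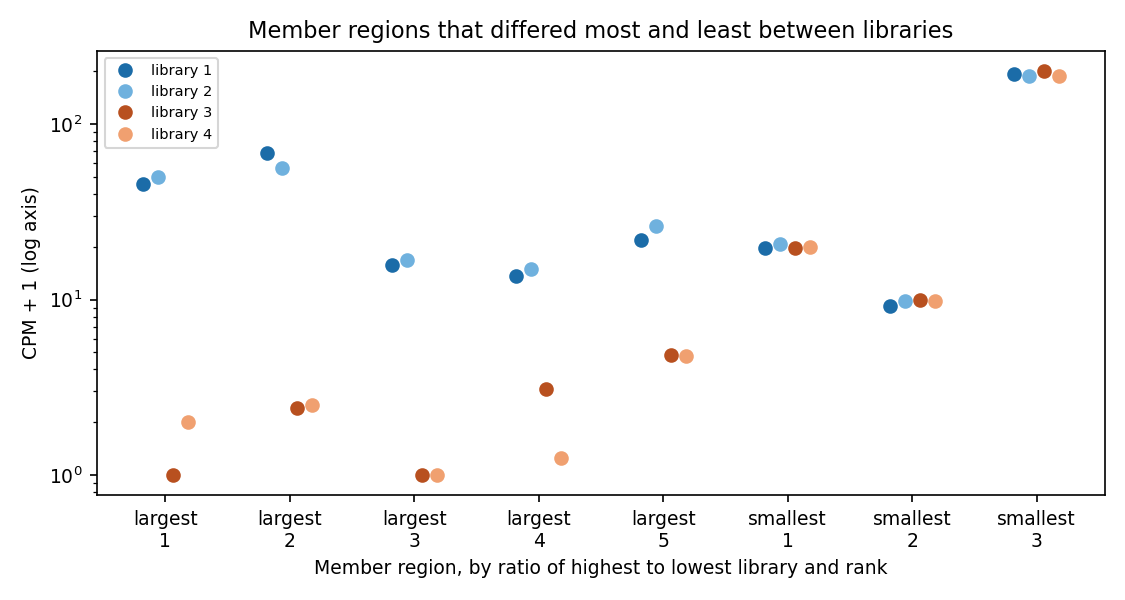
CPM plus 1 on a log axis in each of 4 libraries (points) is shown for the 5 regions with the largest and the 3 with the smallest ratio of highest to lowest library, among the 103 members with at least 100 summed reads. At the 5 largest, libraries 1 and 2 lie above libraries 3 and 4, and at the 3 smallest the 4 points nearly coincide.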

How the data were processed

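The authors deposited 1 table of raw read counts per poly(A) region in 4 libraries, with chromosome, start, end and strand, per the file headers. Bowtie2 2.2.5 and hg19 are named per the submitters' processing notes. How regions were called, how reads from near-identical genes were placed, and whether duplicates were removed are not given in the sources used here. Positions are printed as deposited, and width is end minus start plus one.

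Counts were scaled to CPM by the table's library totals. Libraries were thinned without replacement to the smallest total, 2163977 reads, for widths and for loci with several regions. Windows were compared with the rest of chromosome 19 within each library, and the 4 differences were tested by an exact two-sided sign-flip permutation test. Python 3.11.15, numpy 2.4.6, pandas 2.3.3 and scipy 1.17.1 were used, with edgeR 4.0.16 and DESeq2 1.42.0 for other scalings of the named loci. The scripts were tested on simulated data.

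Named were, per window, the 3 loci with most reads; the 5 loci with most passing regions (at least 100 reads); the 3 longest; of loci with 2 passing regions and 400 reads, the 3 highest, lowest and most even distal shares within 5% to 95%; of regions with at least 100 reads, the 5 and 3 with the largest and smallest ratio of highest to lowest CPM plus 1; and the 3 widest. The members and rules were chosen with earlier results of these data known. Gene names and flanking sequence were not analysed here.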

Additional observations from a re-analysis of the deposited data

Results flagged for a closer look

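Over 63 values with a result in each library, 4 had 1 library set well apart from its fellows, where chance gives about 1 in 20. Library 4 had a median width of 30.0 bases in the windows at equal depth, against 28.0 in the other 3 libraries. This value rests on a single random thinning. With library 1 or library 3 left out and reads drawn anew to the same depth, the median was 28.0 bases in each library kept, library 4 included. Library 2, the shallowest, accounted for the other flagged values. It had 227 CPM at the first window's strongest locus, on the minus strand at chr19:12778864-12778909, against 288 to 298 CPM in the others. It had 33.7 CPM at the plus-strand locus chr19:57815780-57819933, against 24.6 to 25.9 CPM. It had 19.9 CPM at the plus-strand region chr19:54379671-54379704, against 18.6 to 18.8 CPM. The part that counting noise has in these gaps was not tested.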

How the results depend on the processing

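No pairing of libraries between groups was possible because the labels give a single group, so that no replicate numbers are shared between groups. Windows and rest were compared within each library, and that comparison was paired. The differences in level, width and share of loci with several regions kept their direction under each alternative run (19, 17 and 22 of them), and no alternative can bring their p under 0.05. Taking regions that overlap a window gave the same members, so that run repeated the main values. Leaving out the first window, the third window or the strongest region changed none of the loci with a distal share. For the distal share, these runs could not differ from the main one. With them counted, its difference turned under 2 of 21 alternatives: it was -0.55 points with a 10% minimum and -3.24 points at loci with exactly 2 passing regions. The cause was not tested. Without the second window and without the stretch from 54.5 to 56.5 Mb, its mean stayed above 0, but only 2 and 1 of 4 libraries did. The share of chromosome 19 reads in the windows was 9.47% without the first window, 8.59% without the third, 3.11% without the fourth, 4.39% without the stretch from 54.5 to 56.5 Mb and 8.27% without the strongest region, the left-out reads being dropped from the total too. That stretch, the strongest region and the pairs of libraries were alternatives chosen after seeing the data. In libraries 1 and 2 alone and in libraries 3 and 4 alone, the distal share difference was 12.8 and 1.50 points and the level log2 ratio -0.92 and -1.08. The level log2 ratio ran from -1.06 to -0.97 with a library left out, the width difference from -3.67 to -3.33 bases, the several-region difference from -7.13 to -4.24 points, and the share of reads from 10.2% to 10.3%. For width and several-region loci, these runs drew reads anew to the smallest total of the libraries kept. That total was 3984278 reads without library 2, the run that gave -7.13 points, so depth changed there too. Among regions with at least 10 reads at equal depth the width difference was -1 base. TMM factors or DESeq2 size factors left the mean CPM of the 24 named loci within 0.995 to 1.01 times its value. The planned reading of annotation and sequence was not run.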

Other observations

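Fewer members than other regions of chromosome 19 had an opposite-strand neighbour within 2000 bases, as converging genes or divergent transcripts can give. There were 13 of 208 members (6.25%, 95% Wilson interval 3.69% to 10.4%) and 188 of 1259 others (14.9%, 13.1% to 17.0%). Of the 13, 11 lay in the fourth window and 2 in the first. The windows also have fewer regions per Mb, 14.3 against 28.4, and the part of that density in this difference was not tested. Of the members, 125 lay on the plus strand and 83 on the minus strand, and of the others 679 and 580. The plus and minus strands had 11 and 9 members in the first window, 7 and 10 in the second, 15 and 7 in the third and 92 and 57 in the fourth.

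Regions of 5 bases or fewer made up 8 of the 208 members (3.85%, 1.96% to 7.40%) and 29 of 1259 others (2.30%, 1.61% to 3.29%). The 8 members had 9.67, 9.88, 1.14 and 1.44 CPM on average in libraries 1 to 4, and the 29 others 10.4, 8.29, 0.652 and 0.788 CPM. The members' averages rest largely on chr19:38246500-38246501, which gave 231 of the 403 reads of library 1 and 106 of the 171 of library 2. Raw reads, not scaled to the unequal library totals, were not lower in libraries 3 and 4 at the single base 12638125. It lay on the plus strand in the first window and had 22, 13, 32 and 29 reads. Another 2-base region, chr19:53975638-53975639 on the minus strand, had 45, 16, 18 and 11 raw reads, where library 2 is the shallowest of the libraries. Scaled to the library totals, this region was lower in libraries 3 and 4 than in libraries 1 and 2.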
